A study of Homo sapiens with 17 samples.

Results

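L1HS is the youngest LINE-1 (L1) subfamily of the human genome, and most of its annotated copies are shorter than a complete element. Truncated L1HS copies were taken as the rows of the deposited table of repeat loci whose subfamily is exactly L1HS and whose end minus start, in bp of hg38, is 5900 or less. That gave 1276 truncated copies of 1585 L1HS copies, in a table of 3594049 repeat loci, and left 309 full-length copies. The choice used annotation only, not reads.

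A complete L1 carries its own promoter at the 5′ end, followed by the open reading frames of ORF1p, an RNA-binding protein that coats L1 RNA, and ORF2p, whose endonuclease and reverse transcriptase insert a copy at a new site. Copying starts at the 3′ end of the RNA and often stops early, so that new copies are commonly 5′ truncated, and some also carry an inverted 5′ part. Such copies usually lack the promoter and at least one intact reading frame, and where they are transcribed it is commonly from a promoter outside the element.

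RNA was sequenced from N2102Ep, an established human embryonal carcinoma cell line, after RNA immunoprecipitation (RIP) of the endogenous ORF1p or ORF2p, after a mock immunoprecipitation, and directly. There were 4 libraries of the ORF1p RIP and 4 of the ORF2p RIP, with 3 of the mock IP and 6 of total RNA, and no other treatment was named. All libraries but those of the ORF1p RIP were labelled with N2102Ep clone 2/A6, while the ORF1p RIP carried the word embryonal, so ORF1p RIP and any difference of clone cannot be told apart. The mock IP carried the term mIgG. Library names put 2 of the total RNA libraries in a series b and 4 in a series bl. No source said that replicates came from separate cultures, so p-values reflect library-to-library spread that may be technical.

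Totals in repeats ran from 7693841 to 9125527 reads in the ORF1p RIP, 9795032 to 17056092 in the ORF2p RIP, 12703395 to 16271143 in the mock IP and 8937441 to 19670774 in total RNA. The table held no genes, so the cell type was checked on HERVH-int and its LTR7 promoter, repeat RNAs known from human pluripotent and embryonal carcinoma cells. HERVH-int averaged 41277 CPM in the ORF1p RIP, 69598 in the ORF2p RIP, 184153 in the mock IP and 84867 in total RNA. LTR7 averaged 2339, 6677, 11800 and 4330 CPM in the same order of groups. CPM here are read counts scaled by TMM to a library size of 1e6 repeat reads. One library stood apart: replicate 3 of the ORF1p RIP, with 11358 CPM in truncated L1HS copies where the other 3 had 3770 to 3947. Values without it are given beside the sum of truncated copies, its classes and many single copies that it moved. They are not given beside the log2 changes of full-length L1HS or of other subfamilies.

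The truncated copies were mostly short. Their lengths ran from 26 to 5888 bp with a median of 798 bp, against a median of 6031 bp for full-length copies (5955 to 6431 bp). With classes bounded at 500, 1000, 2000 and 4000 bp, 456 copies fell in the shortest, then 302, 274 and 188, and 56 in the longest. Together they covered 1541 kb, and the full-length copies covered 1866 kb. The file's divergence field, of unstated unit, had a median of 9 in truncated copies and 6 in full-length ones, and reached 283 and 142.

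Not every row was a separate short element. There were 799 copies with no other L1HS within 100 bp, while 399 had an L1HS on the other strand beside them and 53 had one on the same strand. The 198 neighbouring pairs on opposite strands all ran minus then plus, and 0 ran plus then minus; this is the arrangement that a 5′ inversion leaves. Such pairs had a median joined length of 1768 bp. Another 25 copies, called boundary pieces below, ended exactly at a multiple of 500000 on their chromosome, where the annotation divided elements. There were 0 full-length copies that ended at such a place. Of the 25 boundary pieces, 10 were pieces of 5 elements of 6027 to 6037 bp joined, and 14 were continued by another L1 subfamily, 12 of them to more than 5900 bp joined. The last 1 was not continued by an L1 on its strand, so no divided element was found there.

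By RefSeq gene spans (hg38), 710 copies lay outside any span, 183 within a span on the strand of the gene, 237 on the opposite strand, 18 within spans of both strands and 128 within spans whose strand was not known. Spans come without exons, so whether a copy is exonic, intronic or in a UTR was not determined.

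Reads of young L1 copies are hard to place. Of the truncated copies' values above 0, 8.08% were whole numbers, meaning within 1e-06 of one, against 68.6% to 86.2% of all loci in each library, and the share was 27.2% for copies up to 500 bp and 1.19% for those over 4000 bp. Full-length copies stood at 0.936%. Most values are therefore fractions of reads, and the sources used here do not give how reads matching several copies were divided. At least 1 library of the group had a value above 0 for 1155 truncated copies in the ORF1p RIP, 1157 in the ORF2p RIP, 1026 in the mock IP and 1085 in total RNA, and 24 were at 0 in all libraries.

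RNA assigned to truncated L1HS copies was higher in both RIPs than in either control. Their summed level was 3828, 3770, 11358 and 3947 CPM in the ORF1p RIP libraries, 5610, 5907, 5983 and 5235 CPM in the ORF2p RIP libraries and 751, 773 and 715 CPM in the mock IP libraries. The 6 total RNA libraries ran from 393 CPM through a median of 772 CPM to 1135 CPM. Every RIP library of either kind lay above every mock IP and total RNA library, while the mock IP lay within the range of total RNA.

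Setting ORF1p beside the mock IP asks which RNAs the antibody recovered above those that a mock antibody recovers. Truncated copies were 7.67-fold higher, with log2 change 2.94 ± 0.43 (SE; edgeR quasi-likelihood test with Benjamini-Hochberg adjustment, adjusted p = 2.69e-05), where 6.87% of the 1077 features of the subfamily table were called higher at an adjusted p under 0.05 and at least 2-fold, and 9.56% lower. Without replicate 3 of the ORF1p RIP the log2 change was 2.37 (edgeR adjusted p = 1.69e-05). Full-length L1HS changed by 4.13 ± 0.49 (edgeR adjusted p = 3.62e-06), and the truncated copies of the next older subfamilies by 1.86 ± 0.36 for L1PA2 and 1.09 ± 0.29 for L1PA3 (edgeR adjusted p = 0.00042 and 0.00498). Differences between these subfamilies were not tested.

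With ORF2p, truncated copies were 7.61-fold higher than in the mock IP, at 2.93 ± 0.43 on the log2 scale (SE, edgeR adjusted p = 8.26e-05), with 6.69% of features called higher and 1.86% lower. Here truncated L1PA2 changed by 2.67 ± 0.38 and truncated L1PA3 by 1.80 ± 0.30 (edgeR adjusted p = 5.83e-05 and 0.00028), and full-length L1HS by 3.36 ± 0.47 (edgeR adjusted p = 5.83e-05). The sums of truncated copies did not differ detectably between the RIPs, at a log2 change of -0.01 ± 0.35 for ORF2p over ORF1p (edgeR adjusted p = 0.98; 12.7% of features called higher and 6.13% lower). Without replicate 3 of the ORF1p RIP that value was 0.58 (edgeR adjusted p = 0.0933).

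Set against total RNA, truncated copies were 7.70-fold higher with ORF1p, at 2.95 ± 0.33 (SE, edgeR adjusted p = 1.17e-06; 8.73% of features called higher and 9.29% lower). Without replicate 3 of the ORF1p RIP that log2 change was 2.37 (edgeR adjusted p = 1.25e-06). With ORF2p the truncated copies were 7.65-fold higher, at 2.93 ± 0.33 (edgeR adjusted p = 3.48e-06), with 5.2% of features called higher and 1.39% lower. Total RNA itself differed by series, with a mean of 418 CPM in series b and 906 CPM in series bl. Against series b alone the fold was 13.7 with ORF1p and 13.6 with ORF2p, and against series bl alone 6.32 and 6.27, with all 4 called. The mock IP over total RNA stood at 0.01 ± 0.35 (edgeR adjusted p = 0.989; 0.743% of features called higher and 0.0% lower).

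Few of these reads could be tied to whole counts. Values that are whole numbers held 0.334% to 2.69% of the truncated copies' reads in the ORF1p RIP libraries, 0.469% to 1.02% in the ORF2p RIP, 2.2% to 3.48% in the mock IP and 1.87% to 5.94% in total RNA. On these values alone the levels were 63.5 ± 33.5 CPM in the ORF1p RIP and 42.8 ± 12.8 CPM in the ORF2p RIP (SD, n = 4 each), against 20.7 ± 5.51 CPM in the mock IP (SD, n = 3). The log2 changes over the mock IP were then 1.46 for ORF1p and 1.27 for ORF2p, and neither passed (edgeR adjusted p = 0.0825 and 0.339). Over total RNA the change was 1.33 for ORF1p (edgeR adjusted p = 0.038) and 1.14 for ORF2p (edgeR adjusted p = 0.177). Total RNA had 23.6 ± 22.0 CPM on these values (SD, n = 6), from 9.26 to 67.4 CPM. It overlapped the ORF1p RIP, where replicates 2 and 3 had 33.7 and 37.9 CPM. What part of the change in the sums comes from reads shared with full-length copies was not tested.

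**Figure D1:**
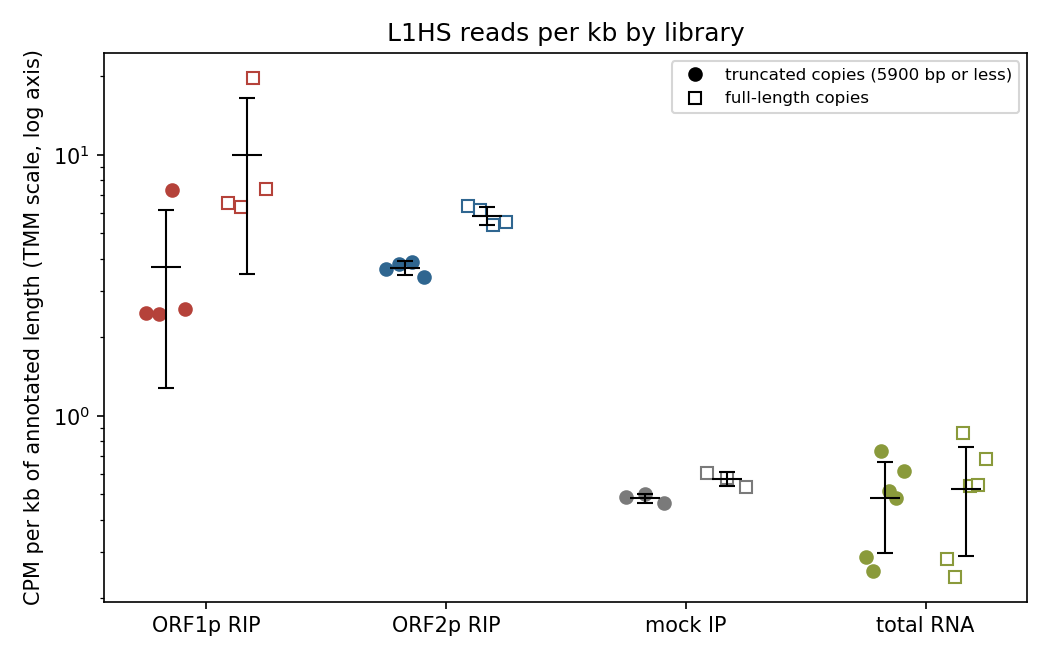
L1HS reads in each library as CPM per kb of annotated length (log axis), for truncated copies (filled circles) and full-length copies (open squares), with the mean and SD of each group in black. Truncated copies average 3.72 in the ORF1p RIP (2.50 without replicate 3) and 3.69 in the ORF2p RIP, against 0.484 in the mock IP and 0.482 in total RNA.

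Per kb of annotated length, truncated copies held less than full-length ones in both RIPs, while the 2 kinds were closer in the controls. The truncated copies' level was 3.72 ± 2.44 CPM per kb in the ORF1p RIP and 3.69 ± 0.22 in the ORF2p RIP (SD, n = 4 each), against 0.484 ± 0.0189 in the mock IP (SD, n = 3) and 0.482 ± 0.186 in total RNA (SD, n = 6). The full-length copies' levels were 10.01, 5.86, 0.572 and 0.524 CPM per kb in the same order of groups. Without replicate 3 the ORF1p RIP averaged 2.50 CPM per kb in truncated copies and 6.77 in full-length ones.

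Truncated copies accordingly made up a smaller part of all L1HS reads in the RIPs. Their share was 23.9%, 24.2%, 23.6% and 22.2% in the ORF1p RIP libraries and 32.0%, 33.9%, 37.3% and 33.7% in the ORF2p RIP libraries. It was 39.9%, 41.8% and 41.8% in the mock IP, and ran from 41.5% through a median of 43.5% to 46.6% in total RNA. The ORF1p RIP, the ORF2p RIP and the mock IP did not overlap one another, and replicate 3 of the ORF1p RIP did not stand apart on this measure.

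The log2 ratio of truncated to full-length reads was compared over libraries by exact permutation, two-sided, with p-values adjusted for 6 comparisons. It was lower by 1.35 with ORF1p than in total RNA (difference -1.35) and lower by 0.58 with ORF2p (difference -0.58), each with an exact permutation p of 0.00952 and an adjusted p of 0.0286. Either call was lost without any one of the 4 RIP libraries in it (exact permutation adjusted p = 0.0714), while the differences kept their direction. Against the mock IP the differences were -1.19 with ORF1p and -0.43 with ORF2p, each at an exact p of 0.0571, which 4 and 3 libraries cannot go below (adjusted p = 0.0686). Between the RIPs the ORF2p ratio was higher than the ORF1p ratio by 0.77 (exact permutation p = 0.0286, the smallest possible; adjusted p = 0.0571), which missed the threshold. The mock IP and total RNA overlapped, with a difference of -0.16 (exact permutation p = 0.0714, adjusted p = 0.0714). Within series b and series bl of total RNA the ORF1p difference was -1.49 and -1.28 and the ORF2p difference -0.72 and -0.52. The adjusted p was 0.16 in series b and 0.0571 in series bl (exact permutation). Both are the smallest that so few libraries allow, so this test could not pass within a series.

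**Figure D2:**
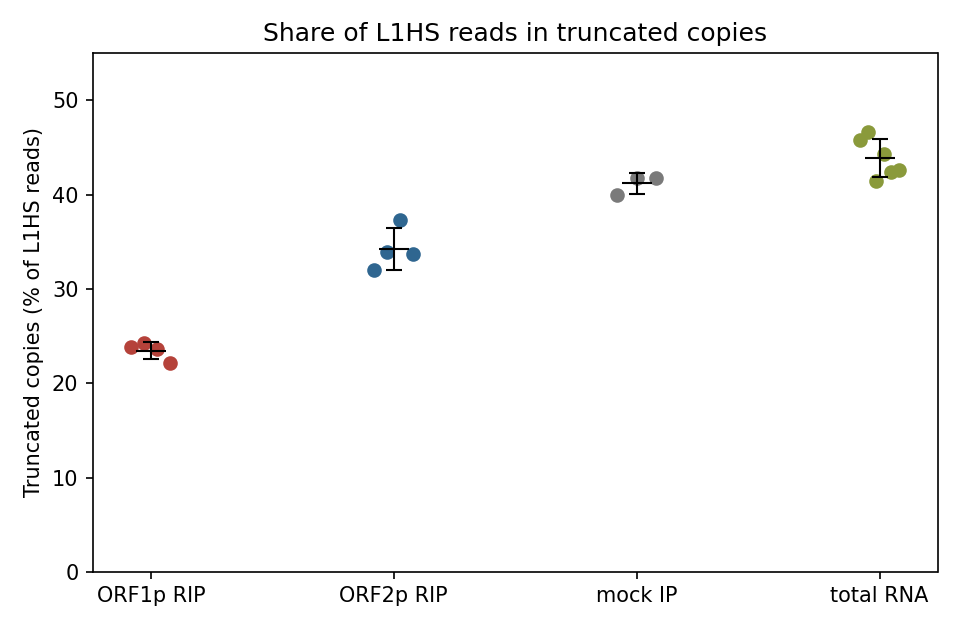
Truncated copies as a percentage of all L1HS reads in each library, with the group mean and SD in black. The ORF1p RIP libraries lie at 22.2% to 24.2%, the ORF2p RIP at 32.0% to 37.3%, the mock IP at 39.9% to 41.8% and total RNA at 41.5% to 46.6%.

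Copies of every length class rose in both RIPs, with the smallest log2 change over the mock IP in the shortest class. Copies up to 500 bp held 224 ± 93.6 CPM in the ORF1p RIP and 290 ± 30.3 CPM in the ORF2p RIP (SD, n = 4 each), against 78.2 ± 5.68 CPM in the mock IP (SD, n = 3), a log2 change of 1.57 ± 0.23 for ORF1p and 1.91 ± 0.24 for ORF2p (SE, edgeR adjusted p = 3.53e-05 and 1.87e-05). Copies over 1000 and up to 2000 bp held 1549 ± 1217 CPM with ORF1p and 1610 ± 322 CPM with ORF2p, against 163 ± 15.6 CPM in the mock IP, a change of 3.33 ± 0.49 and 3.32 ± 0.49 (edgeR adjusted p = 3.11e-05 and 0.000107). Without replicate 3 of the ORF1p RIP the ORF1p change was 1.18 for the copies up to 500 bp and 2.53 for those over 1000 and up to 2000 bp (edgeR adjusted p = 6.06e-08 and 2.71e-06).

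The 3 other classes changed by 2.90 to 3.14 with ORF1p and by 2.49 to 3.03 with ORF2p over the mock IP, and all 5 classes were also called higher than in total RNA. Without replicate 3 of the ORF1p RIP those 3 changed by 2.20 to 2.53 over the mock IP, and all 5 were still called in the ORF1p RIP over either control. None of the 5 was called in ORF2p over ORF1p; the largest difference was -0.41 ± 0.25 for those over 500 and up to 1000 bp (edgeR adjusted p = 0.172). Differences between classes were not tested. The 188 copies over 2000 and up to 4000 bp held 42.4% of the truncated copies' reads with ORF1p, 40.9% with ORF2p, 38.3% in the mock IP and 40.5% in total RNA.

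**Figure D3:**
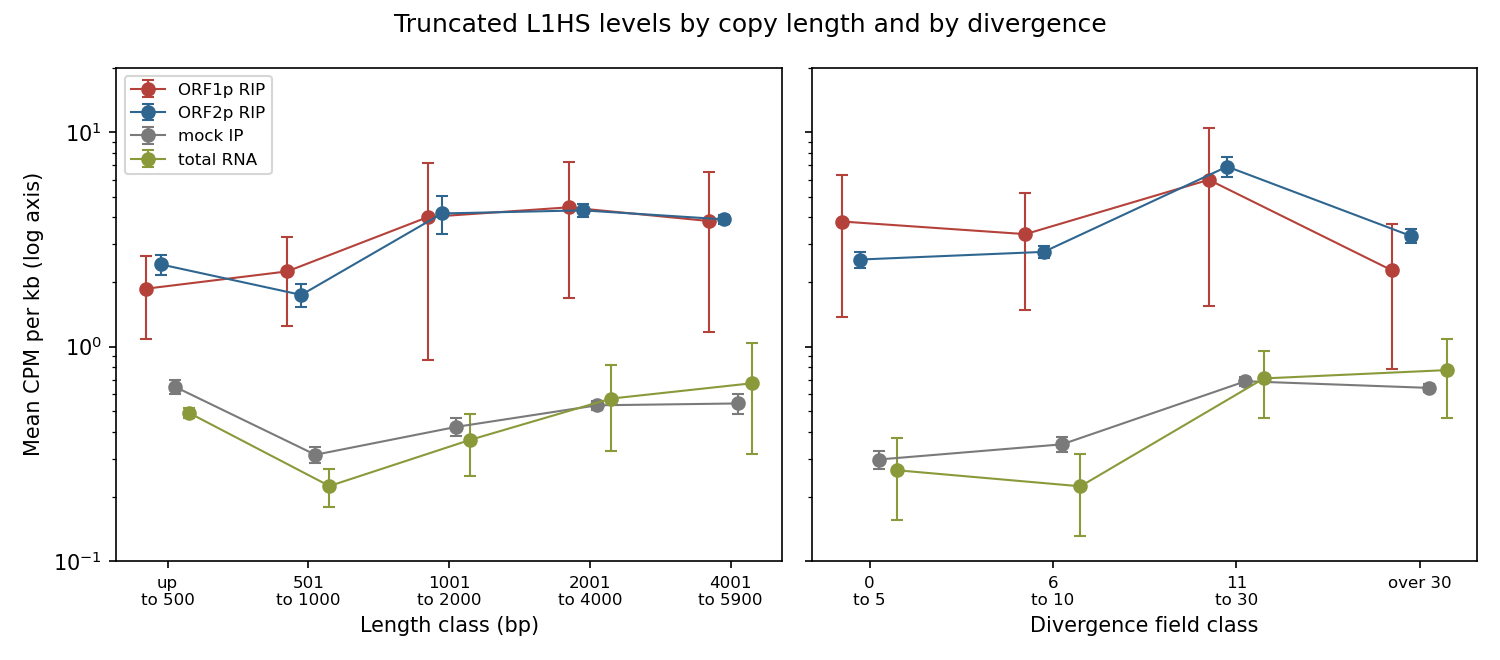
Mean CPM per kb (log axis) of truncated copies in 5 length classes (left) and 4 classes of the file's divergence field (right), with SD bars over the libraries of each group. Both RIPs lie above both controls in every class; in the divergence class over 30 the RIPs stand at 2.26 (ORF1p) and 3.28 (ORF2p), against 0.642 in the mock IP and 0.778 in total RNA.

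The folds varied with divergence, which is given here as a description. In the 333 copies with a divergence field of 0 to 5, the mean level was 12.9-fold the mock IP's with ORF1p and 8.55-fold with ORF2p. In the 364 copies of 6 to 10 these folds were 9.54 and 7.89, and in the 308 copies of 11 to 30 they were 8.69 and 10.01. In the 271 copies over 30 they were 3.53 and 5.11. The ORF2p level was thus 0.665 of the ORF1p level in the least diverged class and 1.45 times it in the most diverged. These figures rest in part on replicate 3 of the ORF1p RIP. Without it, an alternative chosen after seeing the data, the ORF1p folds over the mock IP were 8.73, 6.88, 5.47 and 2.38 in order of class, and the ORF2p level was 0.979, 1.15, 1.83 and 2.15 times the ORF1p level. Across the 702 copies tested singly, the divergence field had a Spearman rho of -0.322 with the log2 change of ORF1p over mock IP, -0.141 with that of ORF2p over mock IP and 0.326 with that of ORF2p over ORF1p. These copies share libraries and reads, and the comparisons share their mock IP or ORF1p libraries, so no p is given. Length had a rho between -0.015 and 0.111 with the same 3 changes.

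All 5 classes of gene context rose in both RIPs. Over the mock IP the ORF1p change was 3.28 ± 0.42 for copies antisense to a gene, 3.12 ± 0.43 for sense copies and 2.98 ± 0.49 for copies outside gene spans (SE, edgeR adjusted p = 7.87e-06, 1.7e-05 and 9.48e-05). The ORF2p changes were 2.97 ± 0.41, 2.78 ± 0.42 and 3.04 ± 0.49 (edgeR adjusted p = 6.01e-05, 0.000131 and 0.000215). Copies of unknown gene strand and copies within spans of both strands were called higher as well, in both RIPs and against both controls. Without replicate 3 of the ORF1p RIP the ORF1p changes over the mock IP were 2.64 for antisense copies, 2.57 for sense copies and 2.27 for copies outside spans, and all 5 classes were still called over either control.

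The 18 copies within spans of both strands were the single class called between the RIPs, at a log2 change of 1.41 ± 0.36 for ORF2p over ORF1p (SE, edgeR adjusted p = 0.00356), or 1.96 without replicate 3 of the ORF1p RIP (edgeR adjusted p = 6.00e-05). In sum they held 105 ± 13.4 CPM in the ORF2p RIP and 38.4 ± 22.2 CPM in the ORF1p RIP (SD, n = 4 each), against 11.01 ± 0.8 CPM in the mock IP (SD, n = 3). That class rested on 1 copy, singled out after its values were seen: the plus-strand piece of 3053 bp at chr12:108996948-109000000, which ends at an annotation boundary and lies within SVOP, on its opposite strand, and LOC105378256, on its own strand. It had 103, 101, 79.4 and 85.3 CPM in the ORF2p RIP libraries, against 8.30, 8.09, 16.7 and 5.43 CPM in the ORF1p RIP. The mock IP had 8.11, 7.37 and 6.82 CPM there, which the ORF1p RIP overlapped. The other 17 copies together had the lower mean with ORF2p, at 12.8 ± 1.82 CPM in the ORF2p RIP and 28.7 ± 17.5 CPM in the ORF1p RIP (SD, n = 4 each; lowest ORF1p library 18.5), against 3.57 ± 0.511 CPM in the mock IP (SD, n = 3); this split was made after seeing the data and was not tested.

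The repeats around the truncated copies were measured to set each copy beside its surroundings. Within 5000 bp of the copies, the level of repeats other than L1HS was 0.588 ± 0.127 CPM per kb in the ORF1p RIP and 0.892 ± 0.0423 in the ORF2p RIP (SD, n = 4 each), against 0.525 ± 0.00593 in the mock IP (SD, n = 3) and 0.624 ± 0.131 in total RNA (SD, n = 6). Truncated copies thus held 6.32 times the level of their surroundings with ORF1p and 4.13 times with ORF2p, against 0.922 times in the mock IP and 0.773 times in total RNA. Without replicate 3 the ORF1p figure was 4.76 times. How much of a copy's reads came from transcripts running through it was not tested.

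Reads were spread unevenly over the copies, although no single copy held most of them. The 100 leading copies held 66.2% of the truncated copies' reads in the ORF1p RIP and 65.3% in the ORF2p RIP. They held 60.7% in the mock IP and 68.2% in total RNA. In each RIP, 47 copies held 50% of the truncated copies' reads, against 59 in the mock IP and 42 in total RNA. The leading copy held 7.19% with ORF1p and 10.6% with ORF2p, but without replicate 3 of the ORF1p RIP it held 3.91% there and 52 copies held 50%. A mean of at least 10 CPM was reached by 118 copies in the ORF1p RIP and 120 in the ORF2p RIP, against 8 in the mock IP and 8 in total RNA; without replicate 3 the ORF1p RIP had 80.

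Tested singly among all repeat loci, 702 of the 1276 truncated copies passed the filter on low counts (filterByExpr, min.count 10), as did 381712 loci in all; 574 copies were too low. A copy could pass through the RIP libraries alone, so these counts describe the copies and lend no weight to the sums. With ORF1p over the mock IP, 550 copies were called higher, against 20.6% of all loci tested, and 10 were called lower, against 27.2% of loci. With ORF2p over the mock IP, 534 were called higher and 0 lower, against 8.31% and 8.3% of loci; at an unadjusted edgeR p under 0.05, 2 were lower, and DESeq2 called 1 lower. The median log2 change of the tested copies was 2.93 with ORF1p and 2.97 with ORF2p, where that of all loci was -0.08 and -0.31. The copies called higher in both RIPs numbered 477, which is 67.9% of those tested, against 3.74% of all loci tested; the 2 comparisons share the mock IP libraries.

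Between the RIPs, 76 copies were called higher with ORF2p and 63 lower, against 28.0% and 25.7% of all loci, and the copies' median was 0.01. Both counts are below the background share of loci. Without replicate 3 of the ORF1p RIP the counts were 126 higher and 33 lower. Over total RNA, 613 copies were called higher and 14 lower with ORF1p (26.4% and 28.9% of loci), and 628 higher and 0 lower with ORF2p (13.2% and 13.9% of loci; 1 lower at an unadjusted edgeR p under 0.05, and 0 by DESeq2). The mock IP over total RNA gave 13 higher and 1 lower (1.09% and 0.176% of loci), or 1 to 31 higher and 0 to 5 lower leaving out each library, with 1 higher without mock IP replicate 1 and 31 without total RNA replicate 1.

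**Figure D4:**
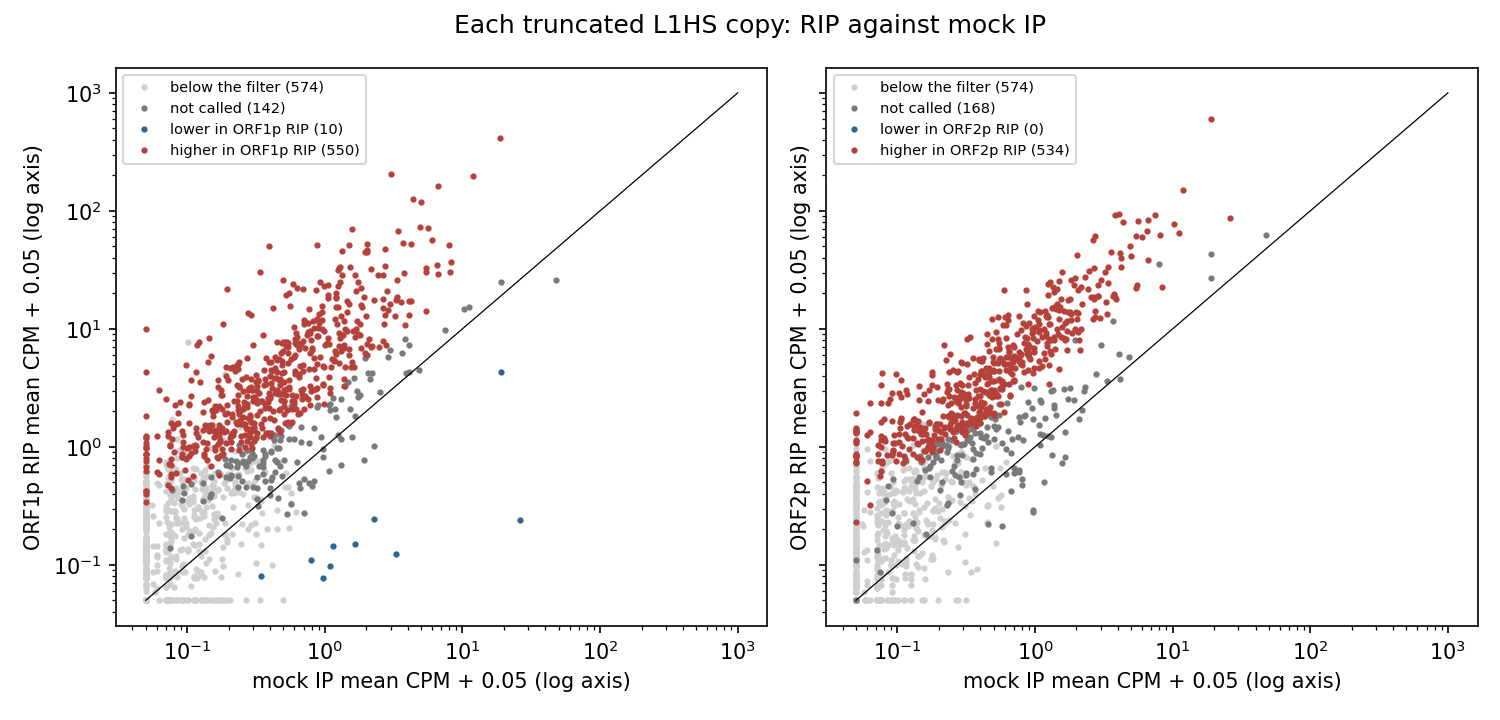
Each of the 1276 truncated copies as a point, by its mean CPM in the ORF1p RIP (left) or the ORF2p RIP (right) on the vertical axis and in the mock IP on the horizontal axis (both log axes, 0.05 added), with the line of equality. With ORF1p, 550 copies are called higher (red) and 10 lower (blue); with ORF2p, 534 are called higher and 0 lower.

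The copy with the highest mean over groups was a minus-strand element of 1949 bp at chr3:26728189-26730137, outside any gene span and with a divergence field of 30. It had 154, 156, 1196 and 142 CPM in the ORF1p RIP libraries, 318, 642, 950 and 507 CPM in the ORF2p RIP and 0.872, 30.5 and 25.01 CPM in the mock IP. Total RNA ran from 1.54 CPM through a median of 8.22 CPM to 25.8 CPM. Both RIPs lay above both controls, although libraries of 1 group differed by more than 4-fold in the ORF1p RIP, the mock IP and total RNA. The log2 change over the mock IP was 4.45 ± 1.03 with ORF1p and 5.01 ± 1.06 with ORF2p (SE, edgeR adjusted p = 0.000808 and 0.00147). The ORF1p value was 3.01 without ORF1p RIP replicate 3 and 5.11 without mock IP replicate 2. Other repeats within 5000 bp had 0.193 CPM per kb with ORF1p and 0.75 with ORF2p, where the copy had 211 and 310 CPM per kb.

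The second, a minus-strand piece of 3443 bp at chr1:68736694-68740136, lies beside a further L1HS piece of 2526 bp on the same strand, and both span 6055 bp together. It had 144, 142, 339 and 167 CPM with ORF1p and 170, 179, 130 and 124 CPM with ORF2p, against 17.4, 5.06 and 13.4 CPM in the mock IP. The neighbouring piece averaged 9.12 CPM with ORF1p and 9.76 with ORF2p, against 0.735 in the mock IP, so the pieces of what may be 1 element held unequal levels. The named copy's log2 change over the mock IP was 4.05 ± 0.54 with ORF1p and 3.66 ± 0.53 with ORF2p (SE, edgeR adjusted p = 6.46e-07 and 1.58e-05).

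A further pair of leading copies were pieces made by the annotation boundary. One, of 2789 bp at chr7:12497212-12500000, lies on the strand of C7orf78 and joins an L1PA3 piece to 6027 bp. It averaged 162 ± 119 CPM with ORF1p and 83.3 ± 14.9 CPM with ORF2p (SD, n = 4 each), against 6.55 ± 2.52 CPM in the mock IP (SD, n = 3); repeats around it also stood higher, at 11.1 and 9.92 CPM per kb in the RIPs and 0.829 in the mock IP. The other, of 5073 bp at chr6:86000001-86005073, joins an L1HS piece of 954 bp to 6027 bp. It had 125 ± 94.8 CPM with ORF1p and 80.5 ± 15.05 CPM with ORF2p, against 4.31 ± 0.734 CPM in the mock IP, and the smaller piece had 2.11, 1.82 and 0.222 CPM in the same order of groups. For the chr7 and chr6 pieces the log2 change of ORF1p over the mock IP was 4.63 and 4.86 (edgeR adjusted p = 1.48e-07 and 6.07e-08). Without replicate 3 of the ORF1p RIP it was 3.98 and 4.18 (edgeR adjusted p = 3.08e-07 and 8.02e-08). The sum of all truncated copies without the 25 boundary pieces is among the alternatives in the closing section.

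One leading copy was far higher with ORF1p than with ORF2p. The minus-strand copy of 5444 bp at chr2:230337070-230342513 lies antisense within SP140L, a member of the SP100 family of nuclear body proteins. It had 138, 134, 383 and 172 CPM in the ORF1p RIP and 27.4, 22.6, 26.7 and 27.4 CPM in the ORF2p RIP, against 2.64, 2.71 and 3.53 CPM in the mock IP. None of the 3 groups overlapped. The log2 change was 6.13 ± 0.51 for ORF1p over mock IP, 3.14 ± 0.44 for ORF2p over mock IP and -2.99 ± 0.38 for ORF2p over ORF1p (SE, edgeR adjusted p = 1.53e-10, 1.06e-05 and 2.81e-07).

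The minus-strand piece of 2330 bp at chr3:22050868-22053197, on the strand of ZNF385D, a zinc finger gene, stands with a plus-strand piece of 3113 bp beside it, 5441 bp joined. It had 102, 58.8, 215 and 102 CPM with ORF1p and 46.5, 51.8, 32.2 and 36.5 CPM with ORF2p, against 6.401, 4.98 and 3.45 CPM in the mock IP. ORF1p libraries all lay above ORF2p libraries (ORF2p over ORF1p -1.51 ± 0.39, edgeR adjusted p = 0.00169). The plus-strand piece averaged 51.6 CPM with ORF1p and 16.1 with ORF2p, against 0.821 in the mock IP. Repeats within 5000 bp of this element were at 0 CPM per kb with ORF1p and 0.00622 with ORF2p, against 0.00602 in the mock IP. Over all 198 opposite-strand pairs, the pieces differed by a median of 3.12-fold per kb with ORF1p and 2.95-fold with ORF2p among pairs with a piece of at least 1 CPM per kb, and their levels had a Spearman rho of 0.354 and 0.267 across pairs.

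The copy of 4952 bp at chr5:102189484-102194435 had 43.2, 35.1, 162 and 45.8 CPM with ORF1p and 100, 104, 42.2 and 81.7 CPM with ORF2p, against 6.50, 5.75 and 4.41 CPM in the mock IP. The RIPs overlapped each other and neither overlapped the mock IP, over which the log2 change was 3.68 ± 0.55 with ORF1p and 3.88 ± 0.55 with ORF2p (SE, edgeR adjusted p = 3.24e-06 and 1.16e-05), or 2.90 with ORF1p without its replicate 3.

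The remaining leading copy, of 5572 bp at chr4:166266017-166271588 with a divergence field of 39, did not follow the others. It had 18.1, 15.3, 45.04 and 24.0 CPM in the ORF1p RIP, 66.4, 65.2, 65.9 and 53.4 CPM in the ORF2p RIP and 56.1, 44.8 and 42.3 CPM in the mock IP, with total RNA from 14.2 through a median of 73.2 to 129 CPM. Neither RIP was called against the mock IP, at -0.90 ± 0.50 for ORF1p and 0.39 ± 0.50 for ORF2p (SE, edgeR adjusted p = 0.138 and 0.633). ORF1p was called lower than total RNA, at -1.41 ± 0.44 (edgeR adjusted p = 0.00818), but the value was 0.54 against series b alone. Repeats around it had 0.935 CPM per kb with ORF1p and 3.9 with ORF2p, against 3.88 in the mock IP and 3.88 in total RNA.

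**Figure D5:**
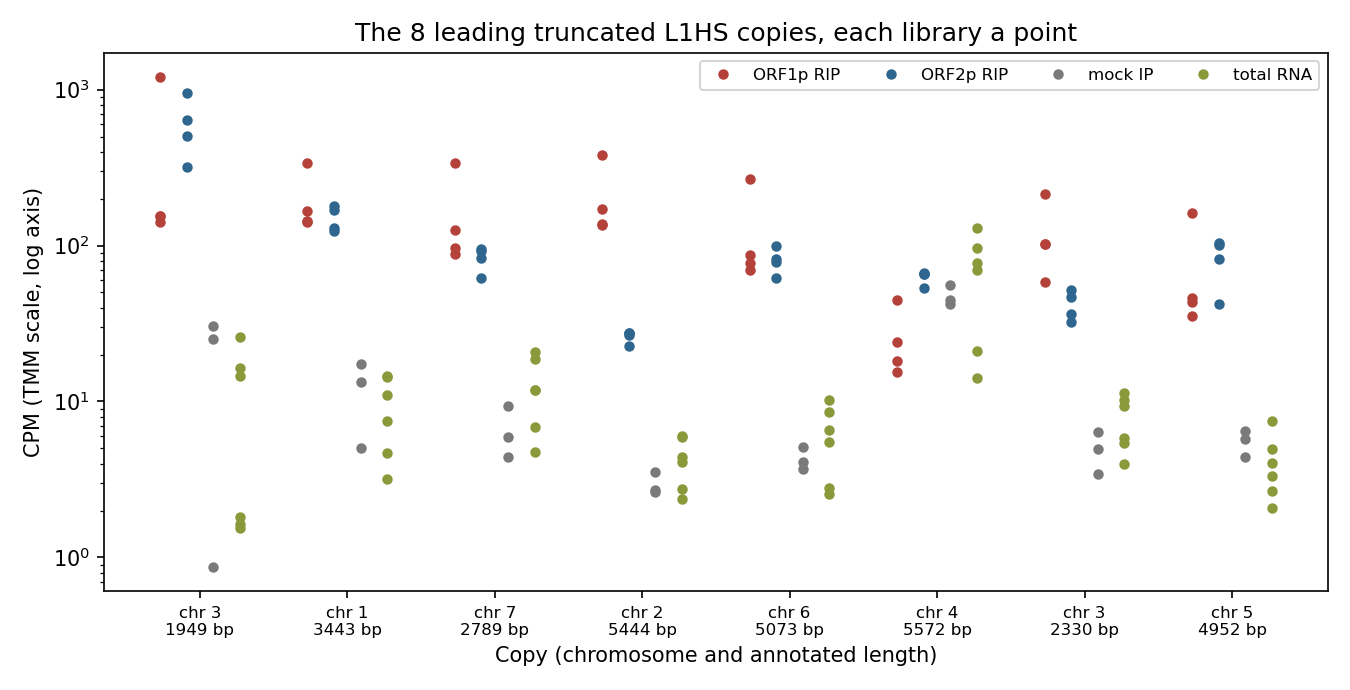
CPM (log axis) of the 8 truncated copies with the highest mean over groups, each library a point, with both RIPs (ORF1p, then ORF2p) left of the mock IP and total RNA within each copy. In 7 of them both RIPs lie above both controls; the copy of 5572 bp on chromosome 4 has 15.3 to 45.04 CPM with ORF1p against 42.3 to 56.1 CPM in the mock IP.

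Other copies were named where called, not overlapping between groups and at least 1 CPM in a group, by the size of the fitted change. Of those higher with ORF1p over the mock IP, the minus-strand piece of 963 bp at chr5:24370507-24371469 had 8.30, 7.07, 13.6 and 10.5 CPM with ORF1p and 0, 0.343, 0 and 0.386 CPM with ORF2p, and was at 0 in all 3 mock IP libraries. The 161 bp piece at chrX:11935089-11935249, antisense in FRMPD4, had 3.39, 3.19, 6.27 and 4.22 CPM with ORF1p and was at 0 in every library of the 3 other groups. It adjoins a full-length L1HS copy of 6018 bp with 42.8 CPM on average with ORF1p and 15.02 with ORF2p, against 1.24 in the mock IP. No fold is given for these 2 copies, since the mock IP was at 0.

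The copy of 509 bp at chr18:24323549-24324057 lies on the strand of OSBPL1A, a gene for an oxysterol-binding protein relative. It had 3.42, 3.15, 1.62 and 3.71 CPM with ORF1p and 0.323, 0.585, 0 and 0.188 CPM with ORF2p, against 0, 0 and 0.0381 CPM in the mock IP. A copy of 1316 bp in PSD3 at chr8:18597108-18598423 averaged 1.77 ± 1.08 CPM with ORF1p and 0.788 ± 0.15 CPM with ORF2p (SD, n = 4 each) and was at 0 in the mock IP.

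Copies lower with ORF1p were few and more diverged. The 10 copies called lower than the mock IP had divergence fields from 7 to 126 with a median of 47. In all 10 the repeats within 5000 bp were lower with ORF1p than in the mock IP too. In how many of all truncated copies this held was not counted. Around all truncated copies such repeats averaged 0.588 CPM per kb with ORF1p (0.525 without replicate 3) and 0.525 in the mock IP. The clearest of the 10 was a plus-strand copy of 112 bp at chr12:20762797-20762908. It had 0.32, 0.171, 0.146 and 0.115 CPM in the ORF1p RIP and 98.3, 87.8, 86.3 and 77.6 CPM in the ORF2p RIP. It had 30.1, 25.2 and 23.3 CPM in the mock IP and from 9.15 through a median of 10.5 to 24.7 CPM in total RNA. None of the RIP and mock IP groups overlapped. The log2 change was -7.10 ± 0.53 for ORF1p over mock IP, 1.74 ± 0.40 for ORF2p over mock IP and 8.84 ± 0.54 for ORF2p over ORF1p (SE, edgeR adjusted p = 2.37e-11, 0.00282 and 8.46e-13). The repeats around it held 0.584 CPM per kb with ORF1p and 57.7 with ORF2p, against 60.7 in the mock IP and 116 in total RNA.

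Of the other copies lower with ORF1p, one of 310 bp at chr20:39977476-39977785 had 0.294, 0, 0 and 0 CPM with ORF1p, against 3.50, 3.02 and 3.28 CPM in the mock IP (-5.05 ± 0.84, edgeR adjusted p = 1.78e-05). One of 3939 bp at chr9:117200270-117204208, on the strand of ASTN2, an astrotactin gene, averaged 0.0999 ± 0.12 CPM with ORF1p and 1.30 ± 0.457 CPM with ORF2p, against 1.59 ± 0.991 CPM in the mock IP. One of 984 bp at chr3:115463000-115463983 averaged 0.0471 ± 0.0571 CPM with ORF1p and 1.23 ± 1.24 CPM with ORF2p, against 1.04 ± 0.39 CPM in the mock IP. ORF2p over mock IP was called in none of these 3.

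Among copies named between the RIPs, the 274 bp copy at chr6:102820721-102820994 was higher with ORF2p. It had 7.55, 9.29, 5.66 and 10.4 CPM with ORF2p and 0.117, 0.225, 0.527 and 0 CPM with ORF1p, at 5.18 ± 0.66 on the log2 scale (SE, edgeR adjusted p = 2.24e-07), or 6.06 without ORF1p RIP replicate 3. The repeats around it stood at 10.04 CPM per kb with ORF2p and 0.0641 with ORF1p. A copy of 1986 bp at chr6:123257277-123259262, on the strand of TRDN, the gene of the muscle protein triadin, averaged 1.53 ± 0.596 CPM with ORF2p and 0.0297 ± 0.0594 CPM with ORF1p (SD, n = 4 each).

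The 340 bp copy at chr22:28611508-28611847, on the strand of TTC28, was lower with ORF2p. It had 1.75, 0.313, 0.417 and 0.292 CPM with ORF2p and 9.32, 8.64, 18.2 and 7.43 CPM with ORF1p (-3.94 ± 0.61, edgeR adjusted p = 5.33e-06, or -4.98 without ORF2p RIP replicate 1). A 154 bp copy at chr13:61122990-61123143, where 83.3% of the values above 0 were whole numbers, had 0.332, 0, 0 and 0 CPM with ORF2p and 1.71, 1.62, 5.12 and 1.61 CPM with ORF1p. Its log2 change of ORF2p over ORF1p was -4.91 ± 0.97 (edgeR adjusted p = 0.000172), and that of ORF1p over the mock IP was 6.33 ± 1.18 (edgeR adjusted p = 0.000114). The size of these values moved with single libraries, while both calls held leaving out each library. Without ORF1p RIP replicate 3 the first was -4.30, and without mock IP replicate 1 the second was 8.11. Without ORF2p RIP replicate 1 the ORF2p RIP was at 0.

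Among those higher with ORF2p over the mock IP, a plus-strand piece of 1641 bp at chr7:109096738-109098378 had 1.61, 1.64, 3.14 and 2.81 CPM with ORF2p, against 0, 0 and 0.0381 CPM in the mock IP (7.95 ± 1.26, edgeR adjusted p = 6.29e-05). Copies of 505 bp at chr2:56682652-56683156 and of 266 bp at chr1:60278377-60278642 averaged 1.90 ± 0.536 and 1.36 ± 1.25 CPM with ORF2p and were at 0 in all 3 mock IP libraries. The chr2 copy was also the 1 copy called lower in the mock IP than in total RNA, where it averaged 0.292 ± 0.152 CPM (SD, n = 6), a call lost without any one mock IP library or without replicate 4, 5 or 6 of total RNA.

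Over total RNA, another copy named for ORF1p was that of 796 bp at chr3:40040198-40040993, on the strand of MYRIP, a gene for a myosin and Rab interacting protein. It had 1.06, 21.2, 36.3 and 27.7 CPM with ORF1p, so that replicate 1 lay far below the rest, and averaged 0.0471 ± 0.0651 CPM in total RNA (SD, n = 6). The change was 8.60 ± 0.76 (SE, edgeR adjusted p = 2.66e-10), or 9.38 without total RNA replicate 3. A 121 bp copy at chr14:84956078-84956198 was lower, with 0.0939 ± 0.0658 CPM with ORF1p and 1.20 ± 0.466 CPM in total RNA (-3.57 ± 0.80, edgeR adjusted p = 0.000407).

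The 4 copies named for ORF2p over total RNA were all on chromosome X, at chrX:95809848-95811359, chrX:145974663-145975947, chrX:66137832-66138260 and chrX:86354017-86354832, the last on the strand of DACH2. They averaged 1.67, 1.67, 1.56 and 1.499 CPM with ORF2p and were at 0 in all 6 total RNA libraries. All 4 were also called higher with ORF1p over total RNA. The copy at chrX:66137832 was itself called higher in the mock IP over total RNA (5.26, edgeR adjusted p = 0.0178). This was lost without mock IP replicate 1 or 3 (edgeR adjusted p = 0.173 and 0.0566). For chrX:86354017, ORF2p over the mock IP was 3.33 (edgeR adjusted p = 0.0329). That call was lost without ORF2p RIP replicate 2 or 3, or mock IP replicate 1 or 2. In the mock IP over total RNA, the copy of 2712 bp at chr5:144551059-144553770 had 0.956, 1.08 and 0.997 CPM in the mock IP and from 0.0606 through a median of 0.101 to 0.585 CPM in total RNA (2.41 ± 0.59, edgeR adjusted p = 0.0354). The copy of 1159 bp at chr3:34652867-34654025 averaged 1.66 ± 0.529 CPM in the mock IP and 0.531 ± 0.285 CPM in total RNA (1.60 ± 0.42, edgeR adjusted p = 0.0485). Both calls were lost without any one of the mock IP libraries, and without replicate 4, 5 or 6 of total RNA; the chr5 value was 3.33 without total RNA replicate 3.

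On either side of the 5900 bp limit, copies with the most reads were described without a test. Just inside it, besides the chr4 copy of 5572 bp above, the copy of 5607 bp at chr4:135178141-135183747 averaged 17.7 ± 6.31 CPM with ORF1p, 56.8 ± 4.1 CPM with ORF2p, 2.59 ± 0.41 CPM in the mock IP and 4.09 ± 2.41 CPM in total RNA. Just outside it, the copy of 5970 bp at chr9:28111896-28117865, on the strand of LINGO2, averaged 119 ± 78.9, 32.5 ± 5.34, 3.005 ± 1.24 and 2.79 ± 1.96 CPM in the same order of groups. The copy of 6004 bp at chrX:142477850-142483853 averaged 36.6 ± 15.5, 69.5 ± 4.65, 6.61 ± 1.29 and 6.61 ± 3.32 CPM. Each side thus held a copy with more CPM in the ORF2p RIP than in the ORF1p RIP.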

How the data were processed

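The authors deposited 1 table of repeat loci in expected counts (unscaled estimates that need not be whole), a unit read from the values. STAR and hg38 are named in the submitters' processing notes; the counting program and how multiply matching reads were divided are not given in the sources used here. Per the labels' protocols, libraries were made with the Trio RNA-seq kit and ribosomal RNA probes. Of 60 value columns, 43 matched no labelled sample and were not used. Starts were moved by 1 to count from 1.

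Expected counts were summed per subfamily, with L1HS, L1PA2 and L1PA3 divided at 5900 bp, rounded to whole numbers, filtered with filterByExpr (min.count 10), scaled with TMM and tested with edgeR 4.0.16 in R 4.3.3 by its quasi-likelihood test across the 17 libraries, using a group-only model and Benjamini-Hochberg adjustment over all features. SE is the log2 change over the square root of F. Single loci were fitted over the whole table with the same factors. A call needs an adjusted p under 0.05 and a change of at least 2-fold. The fit was tested on simulated data. Ratios used an exact permutation test (scipy 1.17.1). Alternatives were DESeq2 1.42.0, other scalings, filters and length limits, whole-number values, the replicate block, each total RNA series and leaving out each library.

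Copies named were the 8 with the highest mean over groups, up to 4 higher and 4 lower per comparison with the largest change (called, not overlapping, at least 1 CPM), and 2 on each side of the limit with the most reads among the 10 nearest. Those on chromosome Y are not described singly. The copies and lists were chosen with earlier results of these data known. Gene spans are RefSeq's. No sequence was printed, since no genome of this build was used here. Replicate numbers were not taken to pair the libraries. Of 21 same-number pairs, 12 correlated above 0.1, from -0.47 to 0.46. Pairs of different numbers were not correlated, so whether the numbers pair the libraries was not settled.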

Additional observations from a re-analysis of the deposited data

Results flagged for a closer look

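A library was picked out where its gap to the nearest other library of its group exceeded Dixon's 95% critical value. This was tested in 177 groups of 4 to 6 libraries, and chance picks out about 1 in 20 such groups. Most cases were replicate 3 of the ORF1p RIP, which was the highest of its group in the truncated sum, at 11358 CPM where the others had 3770 to 3947, in the full-length sum, at 36801 CPM, and in the share of repeat reads in truncated copies, at 1.01%. It was also highest in every length class, at 364, 839, 3374, 4628 and 2153 CPM in order of length. By gene context it held 1858 CPM in sense copies, 2160 in antisense copies, 71.6 within spans of both strands, 664 where the strand was unknown and 6604 outside spans. By form it held 6385 CPM in lone copies, 3053 beside an L1HS on the other strand, 743 beside one on the same strand and 1177 in pieces at an annotation boundary. By divergence it held 2985, 2561, 3953 and 1859 CPM in order of class.

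The same library was highest for single copies. It had 1196 CPM at chr3:26728189, 339 at chr1:68736694, 339 at chr7:12497212, 383 at chr2:230337070, 267 at chr6:86000001, 162 at chr5:102189484, 5.12 at chr13:61122990 and 17.9 at chr5:144551059. Among full-length copies it had 237 CPM at chr9:28111896 and 59.7 at chrX:142477850. What set this library apart was not tested.

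Other libraries were picked out at single copies. In the ORF2p RIP, replicate 2 was lowest at chr2:230337070 with 22.6 CPM, and replicate 4 was lowest at chr4:166266017 with 53.4 CPM and at chr3:34652867 with 5.32 CPM. Replicate 4 was highest at chr1:60278377 with 3.22 CPM, replicate 3 at chr3:115463000 with 3.07 CPM and at chrX:145974663 with 3.67 CPM, and replicate 1 at chr13:61122990 with 0.332 CPM and at chr22:28611508 with 1.75 CPM. In the ORF1p RIP, replicate 1 was highest at chr20:39977476 with 0.294 CPM and replicate 4 at chr6:123257277 with 0.119 CPM. In total RNA, replicate 6 was highest at chr5:24370507 with 0.0503 CPM and at chr18:24323549 with 0.114 CPM, and replicate 3 at chr5:144551059 with 0.585 CPM.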

How the results depend on the processing

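The truncated sums stayed higher, and called, in both RIPs against both controls under every alternative run except whole-number values alone. These gave log2 changes of 1.46 for ORF1p over mock IP (edgeR adjusted p = 0.0825), 1.27 for ORF2p over mock IP (0.339) and 1.14 for ORF2p over total RNA (0.177), with under 6% of the reads left. Leaving out each library in turn, ORF1p over mock IP ran from 2.37 to 3.09, and 2.37 is without ORF1p RIP replicate 3. Leaving out the boundary pieces, an alternative chosen after seeing the data, gave 2.97 for ORF1p and 2.89 for ORF2p over mock IP. Over the comparisons the median log2 change of all features was -0.07 to -0.47 when libraries were scaled by their totals and -0.01 to -0.07 with TMM; relative to the median, the truncated sum changed by 2.91 for ORF1p and 2.98 for ORF2p over mock IP with totals, against 2.96 and 2.98 with TMM.

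The comparisons near 0 changed sign. ORF2p over ORF1p was 0.15 with the replicate block and -0.17 to 0.58 leaving out each library. Mock IP over total RNA was -0.089 by library totals, -0.0020 with no filter, -0.020 without copies of 200 bp or less, -0.13 on whole values, -0.28 with series bl only and -0.12 to 0.17 leaving out each library.

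The ratio of truncated to full-length reads against total RNA no longer passed with a limit of 5500 bp (-1.11 for ORF1p and -0.37 for ORF2p, exact permutation adjusted p = 0.0571), with series b only (-1.49 and -0.72, 0.16) or with series bl only (-1.28 and -0.52, 0.0571). Leaving out each library it ran from -1.38 to -1.32 and from -0.65 to -0.54; it did not pass without any one of the 4 RIP libraries of either comparison (0.0714), and passed without any one total RNA library (0.0476). Each series alone, and each set without a RIP library, has fewer libraries, which raises the smallest p the test can give. Within a series the test could not pass. The limit of 5500 bp kept all 17 libraries, and why the ratio did not pass there was not tested.

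Counts of single copies moved more. With min.count 100, which tests fewer copies, 163 were higher and 2 lower for ORF1p over mock IP, 171 higher for ORF2p over mock IP, 30 higher and 23 lower for ORF2p over ORF1p, 162 higher and 3 lower for ORF1p over total RNA, 174 higher for ORF2p over total RNA and 3 lower for mock IP over total RNA. DESeq2 called 143 higher and 34 lower for ORF2p over ORF1p, 39 higher and 4 lower for mock IP over total RNA and 1 lower for ORF2p over mock IP. By library totals, 8 were higher for mock IP over total RNA, and 1 was lower for ORF2p over each control. With the replicate block, although it was not settled whether numbers pair the libraries, there were 0 higher and 0 lower for mock IP over total RNA. With series b only, 6 were lower for ORF1p over total RNA and 0 for mock IP over total RNA; with series bl only, 2 were lower for ORF2p over total RNA, and 58 were higher and 32 lower for mock IP over total RNA. Leaving out each library, ORF2p over ORF1p gave 54 to 126 higher and 33 to 65 lower, with 126 and 33 without ORF1p RIP replicate 3, and mock IP over total RNA gave 1 to 31 higher and 0 to 5 lower, with 31 without total RNA replicate 1.

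Of the alternatives in which a single named copy was still tested, 1826 kept its call, 87 lost it and 1 changed sign: chr4:166266017 in ORF1p over total RNA, at 0.54 with series b only. Alternatives in which a copy fell below the filter or had no adjusted p are not counted. Low counts limit the 574 copies not tested.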
